A study of Rattus norvegicus with 50 samples.

Results

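Cytochromes P450 are heme enzymes that oxidise drugs, pollutants, fatty acids, steroids, vitamins and bile acid precursors. The expression of their genes was measured in rat lung after inhalation of printer-emitted particles (PEPs). The genes described here were all those whose symbol in the array annotation begins with Cyp and a number, leaving out Cyp1a1, Cyp1b1, Cyp51, Cyp2f4 and Cyp39a1. This gave 52 genes with 53 probe sets, of 14557 genes with 14824 probe sets that carried a single gene name (Cyp2b3 had 2 sets). A further 18 P450 sets carried several gene names and were not used. All 52 genes were found in RefSeq's current rat record, where 36 of them lay in 9 clusters of neighbouring P450 genes with at most 10 genes between members. Cyp2s1, Cyp2b1, Cyp2b2, Cyp2b3, Cyp2b21, Cyp2g1 and Cyp2a1 formed the largest of these clusters. Members of one subfamily are close copies of each other, and cross-hybridisation between them was not tested.

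All rats were male Sprague-Dawley rats, 9 weeks old at purchase, and were exposed for 5 hours a day in whole-body chambers. The PEP rats inhaled the emissions of a laser printer, particles and gases together, and the Air rats inhaled HEPA-filtered air. There were 5 PEP and 5 Air lungs at each of days 1, 5 and 9 and 6 of each at day 21, without an implant. A further 4 PEP and 4 Air lungs at day 21 came from rats that carried a radio telemetry transmitter. That makes 25 PEP and 25 Air lungs, each measured on 1 Affymetrix Rat Gene 2.1 ST array. The values are log2 signals after robust multi-array averaging (RMA), so a difference of 1 is a doubling of the signal, and a low value has no detection call attached to it. The exposures were run in more than 1 year, and since the labels give no run for any lung, day, implant and run cannot be told apart. The labels leave unstated if the arrays stand for separate rats, and p-values then measure the spread between these samples, which may be technical.

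The tissue label reads lung while the description label of the same samples reads blood. The defining lung genes were high in all 50 samples. Sftpc, the surfactant protein of alveolar type 2 cells, lay between 13.0 and 13.2, Scgb1a1, the secretory protein of club cells, between 12.2 and 12.8, and Ager, a marker of alveolar type 1 cells, between 11.9 and 12.5. The lung PEP day 1 replicate 1 stood apart from the other 49. All 11 measured hepatocyte markers were highest there, with albumin at 11.9 against 2.88 to 5.96 in the other lungs, and Fgg was the closest, at 10.3 against 8.37 to 9.92. The mean hepatocyte score, in log2 units relative to the mean of all lungs, was 4.30 in that lung and −0.35 to 0.27 in the others. Differences and counts that include the PEP lungs of day 1 are therefore given with and without this lung. The other comparisons were fitted with it, in a model whose spread is shared by all 10 groups. This lung thus enters their SEs and p-values, above all for sets that are high in it. At day 21 without implant, for example, Cyp2c6v1 had an SE of 0.41, with SDs of 0.10 in PEP and 0.23 in Air lungs.

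P450 enzymes sit mostly in the endoplasmic reticulum, take their electrons from P450 reductase (Por), and are most abundant in the liver. The lung has a smaller set of its own in club cells, alveolar type 2 cells and endothelium, of which Cyp2b1 and Cyp4b1 are well known in the rat. Families 1 to 3 mainly handle foreign chemicals, and several are induced through nuclear receptors or the aryl hydrocarbon receptor. Family 4 and the Cyp2j enzymes oxidise fatty acids and eicosanoids. Cyp7a1, Cyp7b1 and Cyp27a1 belong to bile acid and oxysterol metabolism, family 26 clears retinoic acid, families 11, 17 and 21 make steroid hormones, and Cyp24a1 inactivates vitamin D.

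By these roles the 53 sets fell into 24 xenobiotic, 16 fatty acid, 5 steroid hormone, 3 bile acid and oxysterol, 3 retinoic acid and 1 vitamin D set, with 1 set of other function, Cyp20a1. A set was tested if its variance over the lungs reached 0.05, and 45 of the 53 (84.9%) did, against 8378 of all 14824 (56.5%). The 8 that did not vary enough were Cyp4b1, Cyp4f6 and Cyp2u1 of the fatty acid group, Cyp11a1 and Cyp17a1 of the steroid group, Cyp27a1, Cyp26a1 and Cyp20a1. Cyp4b1 kept to 9.75 to 10.7 over all 50 lungs, and Cyp27a1 to 6.73 to 7.56. Without PEP day 1 replicate 1, 41 sets (77.4%) passed, against 8317 of all sets (56.1%). The 4 sets that varied enough only through that lung were Cyp2c11, Cyp2c22, Cyp2c23 and Cyp7a1. They are kept in all counts over 45 sets, and the first 3 of them in those over 24 xenobiotic sets. Counts over 41 sets are given only for comparisons with the PEP lungs of day 1 and for the airway score. Among the sets that passed, Cyp2b1, the phenobarbital-inducible enzyme that is also made constitutively in rat lung, ranged only from 10.4 to 11.5 over the 50 lungs.

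The first question was whether inhaled PEPs changed P450 expression. No P450 set passed the test between PEP and Air lungs on any day. All results come from a limma model over the 10 groups, with p-values adjusted over all 8378 tested sets and a call made at adjusted p below 0.05. The share of all sets called was 0% at days 1, 5 and 9 and with the implant, 0.215% (18 sets) at day 21 without implant, and 0.131% (11 sets) for the mean of the 5 differences. The 5 differences do not share lungs. Below an unadjusted p of 0.05 lay 4 P450 sets at day 1, 3 at day 5, 2 at day 9, 1 at day 21 and 1 with the implant, against 6.61%, 5.32%, 5.04%, 14.2% and 5.62% of all tested sets. Without PEP day 1 replicate 1 the day 1 count was 2 of 41, Cyp4a3 and Cyp11b2, against 6.24% of all sets, and Cyp11b2 had a difference of −0.43 ± 0.20 (SE, limma adjusted p = 0.781).

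**Figure D1:**
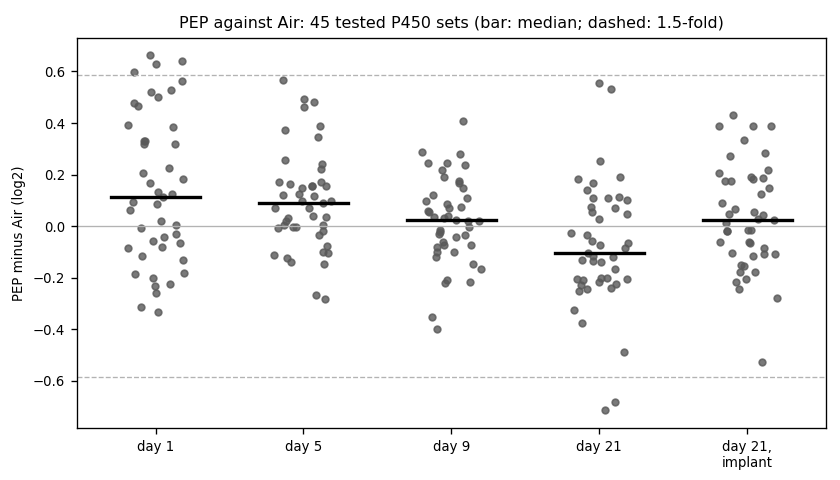
Differences between PEP and Air lungs (y axis, log2) for the 45 tested P450 sets in the 5 comparisons (x axis); each point is a set, the bar is the median over sets and the dashed lines mark 1.5-fold. The day 1 points include PEP day 1 replicate 1, and no point passed the test.

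At day 1 the xenobiotic sets had a median difference of 0.32 (15 of 24 above 0) and the fatty acid sets one of 0.06 (9 of 13 above 0). Without replicate 1 the medians were −0.02 for the xenobiotic sets (8 of 21 above 0) and 0.01 for the fatty acid sets (7 of 13). With that lung, over all 45 tested P450 sets, 28 lay above 0 with a median of 0.11, against 51.4% above 0 and a median of 0.01 over all tested sets. Marker lists of other cell types also lay above 0 at day 1, with none called. Their median differences were 0.54 for hepatocytes, 0.52 for airway secretory cells, 0.42 for motile cilia and 0.51 for cardiac muscle, and 0.15, 0.55, 0.40 and 0.66 without replicate 1. Their part in the P450 differences was not tested. The smallest p belonged to Cyp4a3, a fatty acid omega-hydroxylase that PPAR-alpha induces in rat liver. Cyp4a3 measured 4.75, 2.83, 3.56, 2.81 and 2.57 in PEP lungs and 2.53, 2.51, 2.74, 2.15 and 2.56 in Air lungs at day 1. The PEP lungs thus lay above every Air lung in 4 of 5 cases, and the highest of them was replicate 1. Its difference was 0.63 ± 0.21 (SE, n = 5 each, limma adjusted p = 0.61), and 0.39 ± 0.17 without that lung (limma adjusted p = 0.781).

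Cyp2c22, Cyp3a18 and set 1 of Cyp2b3 followed. These are xenobiotic enzymes of rat liver. Cyp2c22 measured 6.46, 3.13, 3.19, 3.26 and 2.80 in PEP lungs and 2.81, 2.91, 2.95, 2.53 and 3.06 in Air lungs. Cyp3a18 measured 5.83, 2.09, 2.74, 2.33 and 2.71 in PEP lungs and 2.38, 2.43, 2.07, 2.22 and 2.39 in Air lungs. In both, replicate 1 was far above the rest, and the ranges of the other 4 PEP lungs and of the Air lungs overlapped. The weighted differences were 0.64 ± 0.27 for Cyp2c22, 0.60 ± 0.28 for Cyp3a18 and 0.56 ± 0.28 for Cyp2b3 set 1 (SE, limma adjusted p from 0.716 to 0.748). Without replicate 1, Cyp3a18 stood at 0.17 ± 0.16 and Cyp2b3 set 1 at 0.11 ± 0.13, and Cyp2c22 no longer varied enough to be tested.

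Counted by fold alone, 4 P450 sets reached 1.5-fold at day 1, namely Cyp2c22, Cyp2c6v1, Cyp3a18 and Cyp4a3, against 1.27% of all sets. Without replicate 1 the number of P450 sets was 0, against 1.29% of all sets. The count of P450 sets above 0 was then 18 of 41 and their median −0.02. Cyp2c6v1, a constitutive P450 of rat liver, had the largest difference with that lung, 0.66, and −0.02 ± 0.15 without it (SE).

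What PEP day 1 replicate 1 carried was a set of named liver P450s. Of the 53 P450 sets, 18 (34.0%) had their highest value of the 50 lungs there, against 505 of all sets (3.41%). In 14 sets of 13 genes (26.4%) the value was more than 1 log2 unit above every other lung, against 97 of all sets (0.654%). In no other lung did a P450 set stand so far above the rest. These values describe 1 lung, and no test was made on them.

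**Figure D2:**
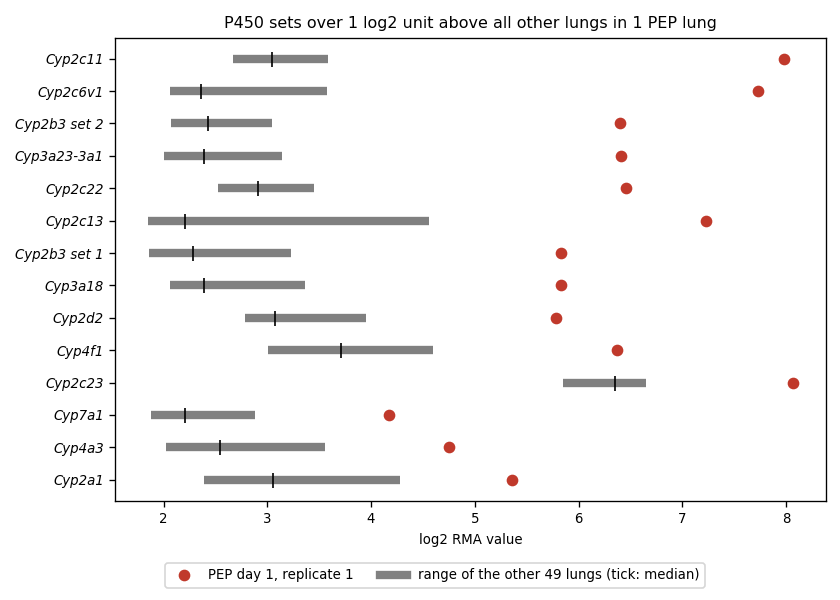
The 14 P450 sets that lay more than 1 log2 unit above every other lung in PEP day 1 replicate 1 (point), with the range of the other 49 lungs (grey bar) and their median (tick), as log2 RMA values. The gap runs from 1.08 for Cyp2a1 to 4.40 for Cyp2c11.

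The widest gap belonged to Cyp2c11, the male-specific steroid hydroxylase of rat liver, at 7.98 against 2.67 to 3.58 in the other 49 lungs. Cyp2c6v1 was at 7.73 against 2.06 to 3.58, and Cyp2c13, also a male form in rat liver, at 7.23 against 1.85 to 4.56. In Cyp2c11 the other PEP lungs of day 1 lay between 2.76 and 3.23 and the Air lungs of day 1 between 2.95 and 3.52. Both Cyp2b3 sets were high, at 5.84 against 1.86 to 3.23 and at 6.40 against 2.07 to 3.05. Cyp3a23-3a1, the steroid-inducible liver form, was at 6.41 against 2.01 to 3.14. Cyp7a1, which catalyses the rate-limiting step of bile acid synthesis, was at 4.17 against 1.88 to 2.88. So the high sets included the Cyp2c, Cyp2b, Cyp3a, Cyp2d, Cyp2a and Cyp4 families as well as the bile acid enzyme. Of the rest, Cyp2d2 was at 5.79 against 2.79 to 3.95, Cyp4f1 at 6.37 against 3.01 to 4.60, and Cyp2a1, a testosterone 7-alpha-hydroxylase, at 5.36 against 2.39 to 4.28. Cyp2c23, an arachidonic acid epoxygenase best known from rat kidney, was at 8.07 against 5.85 to 6.65.

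Not all P450 sets were raised in that lung. Cyp2b1 was at 11.3 there against 10.4 to 11.5 in the other lungs, Cyp2s1 at 9.10 against 7.84 to 9.89 and Cyp4b1 at 10.2 against 9.75 to 10.7. The lung lay lowest of all 50 in Cyp2g1, Cyp2b21 and Cyp11b1. P450 reductase and the other partners of the system are given further below.

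The promoters of 42 of the 52 genes were in RefSeq's table (build GRCr8, 250 bases before to 50 after the start of the gene). The nuclear receptor half-site AGGTCA, read on both strands, stood in 11 of the 42 (26.2%) and in 16.2% of all 33469 promoters. Of the 13 genes high in PEP day 1 replicate 1, 11 had a promoter in the table, and it stood in 4 of these (36.4%). The HNF1 half-site GTTAAT stood in 3 of these 11 (27.3%), in 3 of the 42 (7.14%) and in 7.45% of all promoters. The aryl hydrocarbon receptor core GCGTG stood in 1 of the same 11 (9.09%), in 13 of the 42 (31.0%) and in 29.7% of all promoters. A match is a description of the letters, not a binding site. The promoter of Cyp2c11 is shown since its gene had the widest gap in that lung, from the plus strand at chr1:246174966-246175265, with AGGTCA in capitals (on either strand).
Cyp2c11: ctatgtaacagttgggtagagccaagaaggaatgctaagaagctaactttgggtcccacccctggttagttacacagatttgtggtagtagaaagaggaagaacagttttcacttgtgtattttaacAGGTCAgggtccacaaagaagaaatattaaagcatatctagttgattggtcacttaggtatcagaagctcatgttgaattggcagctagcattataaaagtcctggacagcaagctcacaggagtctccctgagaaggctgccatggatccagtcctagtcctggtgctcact

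At day 5 the 3 smallest p belonged to Cyp2c12, Cyp4f5 and Cyp2d4. Cyp2c12 is the female form of rat liver. The differences were 0.49 ± 0.20, 0.46 ± 0.20 and 0.34 ± 0.17 (SE, n = 5 each, limma adjusted p from 0.844 to 0.896). Set 1 of Cyp2b3 was the only P450 set whose PEP lungs all lay above all Air lungs, against 0.489% of all sets. It measured 2.34, 2.45, 2.92, 2.40 and 2.26 in PEP lungs and 1.95, 1.86, 1.89, 1.90 and 2.05 in Air lungs. The difference was 0.57 ± 0.29 (SE, limma adjusted p = 0.896), and the SDs were 0.26 in PEP and 0.07 in Air lungs. This SE uses the spread shared by all 10 groups, which includes PEP day 1 replicate 1. At day 1 the SE of this set was 0.28 with that lung and 0.13 without it. Its day 5 p without that lung is not given here. Set 2 of the same gene did not separate the lungs. Of its PEP lungs, 3 lay above all Air lungs and 2 below all of them. Its difference was 0.17 ± 0.33 (SE, limma adjusted p = 0.979). No P450 set reached 1.5-fold at day 5, against 0.943% of all sets, and 31 of 45 differences lay above 0, against 56.8% of all sets.

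At day 9 Cyp24a1, the vitamin D 24-hydroxylase, measured 2.90, 2.95, 2.66, 2.59 and 3.39 in PEP lungs and 2.21, 2.78, 2.60, 2.30 and 2.50 in Air lungs. Of the PEP lungs, 3 lay above all Air lungs. The difference of 0.41 ± 0.15 did not pass (SE, n = 5 each, limma adjusted p = 0.895). Cyp2d4 had a difference of −0.35 ± 0.17 (limma adjusted p = 0.945), the opposite sign to day 5. The P450 sets split 25 above and 20 below 0, and 50.1% of all sets lay above 0. None reached 1.5-fold, against 0.633% of all sets.

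At day 21 without implant, more P450 sets were below 0 than above, 29 against 16, while 45.9% of all sets lay above 0. The median was −0.10, against −0.02 over all sets. In the xenobiotic group 16 of 24 lay below 0 and in the fatty acid group 10 of 13. These counts keep the 4 sets that were tested only through PEP day 1 replicate 1. Their differences here were 0.11 for Cyp2c11, −0.23 for Cyp2c22, 0.03 for Cyp2c23 and −0.14 for Cyp7a1. Cyp2d3 had 2.34, 2.72 and 3.21 as its lowest, median and highest value in PEP lungs and 2.85, 3.39 and 4.36 in Air lungs. All 6 PEP lungs lay below the Air mean and 4 lay below every Air lung. The difference was −0.68 ± 0.22 (SE, n = 6 each, limma adjusted p = 0.181). Cyp2g1 had a lowest, median and highest value of 2.62, 3.03 and 5.20 in PEP lungs and 2.70, 4.21 and 5.49 in Air lungs. The lungs overlapped over almost the whole range, and its difference was −0.71 ± 0.36 (limma adjusted p = 0.366). Cyp2d3 and Cyp2g1 were the only P450 sets at 1.5-fold, against 3.28% of all sets. Markers of airway secretory cells were also lower in PEP lungs here, with a median difference of −1.30 over the 5 tested markers. Motile cilia markers had one of −0.75 over 9, cardiac muscle markers −1.60 over 7 and hepatocyte markers −0.15 over 11. The 1 tested marker of alveolar type 2 cells had −0.35. Adipocyte markers went the other way, at 0.21 over 5, as did the 1 tested marker of endothelium, at 0.18. None of these markers was called. Their part in these differences was not tested.

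In the implanted rats of day 21, Cyp11b2, the aldosterone synthase, measured 3.14, 2.66, 2.92 and 3.23 in PEP lungs and 3.76, 3.49, 3.48 and 3.24 in Air lungs. The groups did not overlap, which was so in this direction for 1.01% of all sets. The difference was −0.53 ± 0.25 (SE, n = 4 each, limma adjusted p = 0.868), and without implant the PEP and Air means of Cyp11b2 were 3.50 and 3.49. None of the P450 sets reached 1.5-fold, against 2.01% of all sets.

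Averaged over the 5 differences, Cyp4v3, the counterpart of the human fatty acid hydroxylase CYP4V2, had a difference of −0.14 ± 0.07 (SE, limma adjusted p = 0.458), with 17 of 25 PEP lungs below the mean of their Air group. No P450 set passed, 1 lay below an unadjusted p of 0.05 against 10.6% of all sets, and 34 of 45 differences were above 0, against 54.1% of all sets. Without PEP day 1 replicate 1, 26 of 41 differences were above 0, against 53.3% of all sets, and 2 sets lay below an unadjusted p of 0.05, against 10.4%. These were set 1 of Cyp2b3, at 0.13 ± 0.06, and Cyp4v3, at −0.14 ± 0.07 (SE, limma adjusted p = 0.431 and 0.448). Nor did any P450 set pass for a change of the PEP difference over days 1, 5, 9 and 21, where 0% of all sets were called. Below an unadjusted p of 0.05 lay 4 P450 sets against 7.85% of all, the smallest p being that of Cyp2d4 (limma adjusted p = 0.617). Without that lung these were 5 P450 sets against 7.59%, and the smallest p was that of set 1 of Cyp2b3 (limma adjusted p = 0.202). The difference between implanted and other rats in the PEP effect was called for 0 of 45 P450 sets and for 0% of all sets in the same limma model, with 1 P450 set below an unadjusted p of 0.05 against 6.7% of all. Its largest P450 value was that of Cyp2d3, 0.96 ± 0.35 (SE, limma adjusted p = 0.663).

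The second question was how P450 expression differed between the days, above all in lungs that inhaled filtered air only. In PEP lungs an F test over days 1, 5, 9 and 21 called 2 P450 sets, Cyp2b2 and Cyp2j16, against 4.81% of all sets, and the same 2 without PEP day 1 replicate 1, against 4.02%. In Air lungs, 6 of the 45 tested P450 sets were called by the same test, against 18.4% of all tested sets (1541), so the P450 share of 13.3% was near the background. They were Cyp2d4, Cyp2b2, Cyp2g1 and Cyp2s1 of the xenobiotic group and Cyp4f39 and Cyp4x1 of the fatty acid group. Cyp2b2 was thus called in both.

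**Figure D3:**
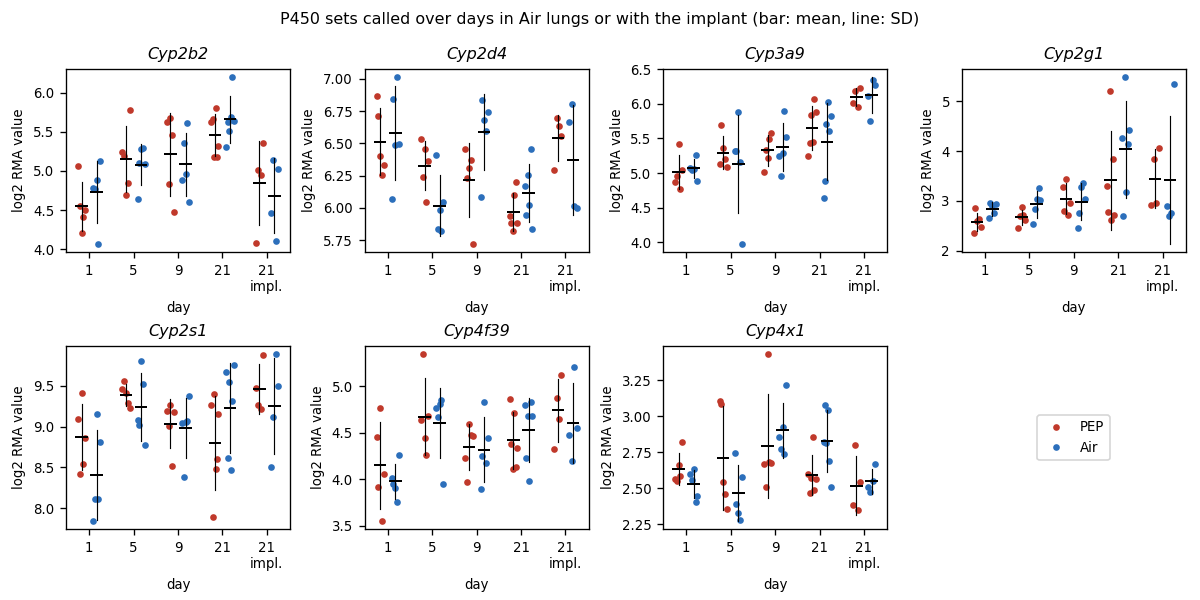
Log2 RMA values (y axis) of the 7 P450 sets called over days in Air lungs or with the implant, by day (x axis, impl. marks the implanted rats), PEP lungs in red left of Air lungs in blue; each point is a lung, the bar is the mean and the line the SD. Cyp2b2 is higher at day 21 without implant than at day 1 in both, and lower again in the implanted lungs.

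Cyp2b2 is the close relative of Cyp2b1 that phenobarbital induces in rat liver. Its means over days 1, 5, 9 and 21 were 4.55 ± 0.32, 5.15 ± 0.42, 5.21 ± 0.53 and 5.46 ± 0.27 in PEP lungs (SD, n = 5, 5, 5 and 6, limma adjusted p = 0.0238). Without PEP day 1 replicate 1 the day 1 mean was 4.42 ± 0.15 (SD, n = 4, limma adjusted p = 0.0166). Its Air lungs measured 4.78, 4.77, 4.89, 4.07 and 5.13 at day 1, 4.64, 5.11, 5.28, 5.29 and 5.09 at day 5, and 4.88, 5.36, 4.96, 5.62 and 4.60 at day 9. At day 21 the lowest, median and highest were 5.30, 5.63 and 6.20. All Air lungs of day 21 lay above all Air lungs of day 1, and those of days 5 and 9 had means between these. The Air means were 4.73 ± 0.40, 5.08 ± 0.26, 5.09 ± 0.40 and 5.66 ± 0.30 (SD, n = 5, 5, 5 and 6, limma adjusted p = 0.0175). Over days 1, 5 and 9 alone the Air lungs did not pass for Cyp2b2 (limma adjusted p = 0.465), and 1 P450 set, Cyp2d4, was called, against 2.64% of all sets. Leaving out Air day 1 replicate 4 or Air day 21 replicate 5 ended the call (limma adjusted p = 0.0569 and 0.0874).

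Cyp2d4, the Cyp2d form known from rat brain, also differed between days, without a steady course. In PEP lungs its means were 6.51, 6.33, 6.22 and 5.97, and the set did not pass (limma adjusted p = 0.156, or 0.251 with a day 1 mean of 6.43 when replicate 1 was left out). Its Air lungs measured 6.07, 6.84, 6.49, 7.01 and 6.49 at day 1, 6.41, 5.84, 5.98, 5.82 and 6.04 at day 5, and 6.08, 6.83, 6.68, 6.60 and 6.74 at day 9. At day 21 the lowest, median and highest were 5.84, 6.09 and 6.46. Days 1 and 9 were mostly high and days 5 and 21 mostly low, and the ranges overlapped. The limma adjusted p in Air lungs was 0.00478, and it stayed below 0.05 when any 1 of the 50 lungs was left out.

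Cyp2s1 is a P450 of airway epithelium that dioxin induces. Its Air lungs measured 7.84, 8.11, 9.16, 8.12 and 8.82 at day 1, 9.09, 9.02, 9.80, 9.52 and 8.78 at day 5, and 9.04, 8.38, 9.06, 9.06 and 9.37 at day 9, and at day 21 the lowest, median and highest were 8.47, 9.43 and 9.76. Most day 1 lungs were low, and the later days overlapped (limma adjusted p = 0.0208). Cyp2g1, the P450 of olfactory mucosa, had Air means of 2.84 ± 0.13, 2.93 ± 0.27, 2.98 ± 0.37 and 4.03 ± 0.98 (SD, limma adjusted p = 0.0196). Only day 21 was high, and there the spread was widest, from 2.70 to 5.49. Leaving out any one of Air day 1 replicates 1, 2 and 4 ended the call for Cyp2s1 (limma adjusted p up to 0.0823), and any one of Air day 21 replicates 1, 3, 5 and 6 that for Cyp2g1 (up to 0.159).

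Cyp4f39, whose human counterpart makes the long omega-hydroxy fatty acids of skin ceramides, had Air means of 3.98 ± 0.19, 4.61 ± 0.38, 4.32 ± 0.35 and 4.53 ± 0.35 (SD, limma adjusted p = 0.0237). Cyp4x1, an orphan P450 known from brain, had 2.53 ± 0.10, 2.46 ± 0.19, 2.90 ± 0.19 and 2.83 ± 0.22 (SD, limma adjusted p = 0.0286). Day 1 was lowest for Cyp4f39 and days 1 and 5 were low for Cyp4x1. Each lost its call when 1 of 3 single Air lungs was left out, with limma adjusted p up to 0.0674 for Cyp4f39 (Air day 1 replicates 2 and 4, Air day 5 replicate 3) and up to 0.0695 for Cyp4x1 (Air day 5 replicates 3 and 4, Air day 9 replicate 5). Cyp2j16 had PEP means of 1.90 ± 0.04, 2.26 ± 0.29, 2.79 ± 0.50 and 2.48 ± 0.42 at days 1, 5, 9 and 21 (SD). These are low values, to which no detection call is attached. Without PEP day 1 replicate 1 the day 1 mean was 1.90 ± 0.05 (SD). Cyp2j16 was called over days in PEP lungs only (limma adjusted p = 0.0102, and 0.0171 without that lung), and stood at a limma adjusted p of 0.056 in Air lungs. No test compared PEP with Air lungs in this respect other than the test of the change in the PEP difference, which called none.

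Markers of some other cell types also differed between days in the same Air lungs, tested by the same F test. The share of all sets called by it is given above. The mean score of 6 airway secretory markers was −1.23 at day 1, 0.38 at day 5, 0.18 at day 9 and 0.78 at day 21, and 3 of the 5 tested markers were called. The score of 9 motile cilia markers was −0.84, 0.31, −0.09 and 0.52, with 9 of 9 called. That of 7 cardiac muscle markers was −1.70, 0.12, −0.01 and 1.38, with 4 of 7 called. Of the hepatocyte markers 0 of 11 were called and of the adipocyte markers 0 of 5. The 1 tested marker of alveolar type 2 cells was not called, and the 1 tested marker of endothelium was. The part of these cell types in the P450 differences was not tested. In these bulk samples, fewer cells of a type and less RNA per cell cannot be told apart.

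The third comparison set implanted against other rats at day 21, as the mean of the PEP and the Air difference. With the transmitter, Cyp2b2 fell, and Cyp3a9 and Cyp2d4 rose, 3 of 45 P450 sets against 14.2% of all tested sets (1186). Over the 45 P450 sets, 12 differences lay above 0 with a median of −0.09, against 46.4% above 0 and a median of −0.02 over all tested sets. In the xenobiotic group 19 of 24 lay below 0. Sets that were tested only through PEP day 1 replicate 1 are among these, and counts without them are not given. In PEP lungs alone 1 P450 set was called, Cyp2d4, against 3.74% of all sets, and in Air lungs alone 1, Cyp2b2, against 6.79%. The implant groups were compared on the same day, but no label says whether they were exposed in the same run.

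Cyp2b2 measured 4.08, 5.01, 4.94 and 5.35 in implanted PEP lungs and 4.47, 5.14, 4.11 and 5.03 in implanted Air lungs. The PEP lungs without implant had 5.17, 5.47 and 5.81 as lowest, median and highest and the Air lungs without implant 5.30, 5.63 and 6.20. Of the 8 implanted lungs, 7 lay below all 12 others. The difference was −0.76 ± 0.18 (SE, 1.69-fold lower, limma adjusted p = 0.00214), and it held with any single lung left out. Within PEP lungs it was −0.57 ± 0.25 (limma adjusted p = 0.209) and within Air lungs −0.94 ± 0.25 (limma adjusted p = 0.0159). The difference between these 2 values was 0.37 ± 0.35 (SE, limma adjusted p = 0.867). Cyp2b2 was the only P450 set at 1.5-fold, against 3.95% of all sets.

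The promoters of Cyp2b2 and its neighbour Cyp2b1 are shown because Cyp2b2 carried the day and implant differences while Cyp2b1 passed neither test. With a shift of 17 bases, 275 of the 283 bases compared were the same (97.2%). Both are on the plus strand of chromosome 1 (GRCr8), at chr1:90722031-90722330 for Cyp2b2 and chr1:90645869-90646168 for Cyp2b1, with GCGTG (on either strand) in capitals.
Cyp2b2: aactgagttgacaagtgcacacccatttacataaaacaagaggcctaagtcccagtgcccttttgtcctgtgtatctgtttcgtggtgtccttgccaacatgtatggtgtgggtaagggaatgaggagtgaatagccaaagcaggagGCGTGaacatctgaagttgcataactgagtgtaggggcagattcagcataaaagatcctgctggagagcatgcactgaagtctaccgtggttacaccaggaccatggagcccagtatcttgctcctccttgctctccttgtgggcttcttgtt
Cyp2b1: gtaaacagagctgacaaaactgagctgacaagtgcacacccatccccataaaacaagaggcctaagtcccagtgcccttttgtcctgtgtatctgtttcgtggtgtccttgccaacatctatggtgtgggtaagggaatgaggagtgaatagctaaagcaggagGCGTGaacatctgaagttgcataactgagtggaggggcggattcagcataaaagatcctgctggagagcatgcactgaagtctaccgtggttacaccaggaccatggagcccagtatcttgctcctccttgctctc
Each holds GCGTG once, and AGGTCA and GTTAAT are not in these windows. Of the 7 genes called over days in Air lungs or with the implant, 3 promoters held GCGTG, Cyp2b2, Cyp4f39 and Cyp4x1, against 29.7% of all promoters. How far the array separates the transcripts of the 2 genes was not tested.

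Cyp3a9, a Cyp3a form found in rat liver and olfactory tissue, measured 6.01, 6.19, 5.96 and 6.23 in implanted PEP lungs and 6.12, 5.76, 6.35 and 6.27 in implanted Air lungs. Without implant the lowest, median and highest were 5.24, 5.64 and 6.07 in PEP lungs and 4.64, 5.66 and 6.03 in Air lungs. Of the 8 implanted lungs, 5 lay above all 12 others, and all 8 were above the mean of their own group without implant. The difference was 0.54 ± 0.16 (SE, limma adjusted p = 0.0157) and held with any single lung left out. It was 0.40 ± 0.22 in PEP lungs and 0.67 ± 0.23 in Air lungs, neither of which passed alone (limma adjusted p = 0.363 and 0.0609).

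Cyp2d4 measured 6.29, 6.70, 6.63 and 6.56 in implanted PEP lungs and 6.67, 6.80, 6.01 and 6.0 in implanted Air lungs. Without implant the lowest, median and highest were 5.82, 5.91 and 6.20 in PEP lungs and 5.84, 6.09 and 6.46 in Air lungs. The 4 implanted PEP lungs lay above all 6 PEP lungs without implant, while 2 of the 4 implanted Air lungs lay among those without. The difference was 0.41 ± 0.13 (SE, limma adjusted p = 0.0208). It was called within PEP lungs (0.59 ± 0.18, limma adjusted p = 0.0471) and not within Air lungs (0.23 ± 0.18, limma adjusted p = 0.465), and the test of that difference gave 0.35 ± 0.25 (limma adjusted p = 0.834). The call was lost without PEP implant replicate 2 or without Air implant replicate 1 or 2 (limma adjusted p = 0.0527, 0.0873 and 0.114). Among the marker lists, 1 of 11 hepatocyte and 1 of 5 adipocyte markers were called higher with the implant and none of the secretory, cilia or cardiac markers was called.

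Which P450 sets varied with airway secretory markers between lungs was asked within groups, over the 49 lungs other than PEP day 1 replicate 1. The airway score of a lung is the mean, over 6 secretory cell markers including Scgb1a1, of the marker's deviation from its group mean, in log2 units. Of the 45 tested sets, 41 varied enough in these 49 lungs, and of their 41 relations 2 passed the correction by r and by rho. This restriction to 41 sets was made after seeing the data. Cyp2s1 had Pearson's r = 0.73 and Spearman's rho = 0.77 (permutation p = 1e-05 each, the smallest 100000 resamples can give, adjusted p = 0.000205 and 0.00041). Cyp2g1 had r = 0.68 and rho = 0.62 (permutation p = 1e-05 and 2e-05, adjusted p = 0.000205 and 0.00041). Without the 2 lungs farthest from the median score, Air day 21 replicate 4 and Air implant replicate 1, r was 0.68 for Cyp2s1 and 0.66 for Cyp2g1. Cyp2b2 had an r of 0.03 and a rho of 0.03 (permutation adjusted p = 0.921 and 0.981).

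**Figure D4:**
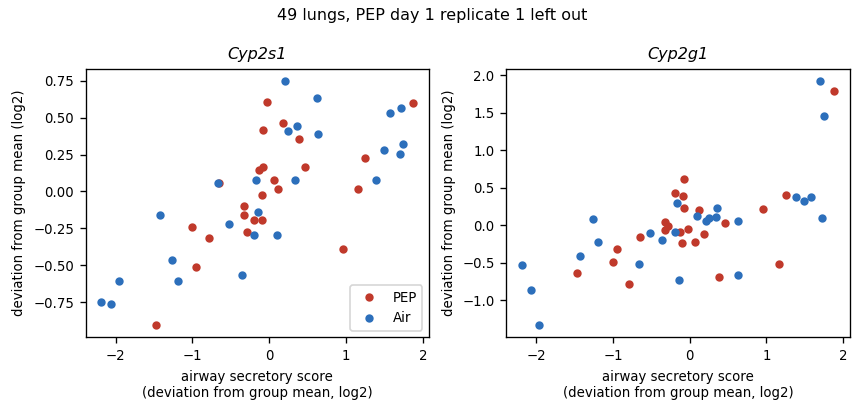
Cyp2s1 and Cyp2g1 (y axes, log2 deviation from the group mean) against the airway secretory score (x axes, log2 deviation from the group mean) in 49 lungs, PEP lungs in red and Air lungs in blue. Both rise with the score (r = 0.73 and 0.68).

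Cyp2s1 is printed as the P450 that followed the airway score most closely, from the minus strand of GRCr8 at chr1:90453024-90453323, with AGGTCA (on either strand) in capitals. The promoter of Cyp2g1 held none of the 3 motifs.
Cyp2s1: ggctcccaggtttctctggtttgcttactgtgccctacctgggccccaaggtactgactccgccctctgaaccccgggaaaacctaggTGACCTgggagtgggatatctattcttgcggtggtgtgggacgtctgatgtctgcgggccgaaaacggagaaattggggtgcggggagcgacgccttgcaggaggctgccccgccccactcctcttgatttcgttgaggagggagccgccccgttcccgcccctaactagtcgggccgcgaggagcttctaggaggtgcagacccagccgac

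The partners of the P450 system were taken from a list of 18 genes: the electron donors (Por, Cyb5a, Cyb5b, Cyb5r3, Fdx1, Fdxr), heme synthesis (Alas1), the receptors that regulate P450 genes (among them Ahr, Arnt, Nr1i2, Nr1i3, Ppara) and the epoxide hydrolases. Of these, 13 were measured by a single-gene set and 8 varied enough to be tested. None passed between PEP and Air lungs in any of the 5 comparisons. At day 1 all 8 lay above 0 with a median of 0.21, and Por had 0.31 ± 0.13 (SE, limma adjusted p = 0.716). Without PEP day 1 replicate 1 all 8 again lay above 0 with a median of 0.20, and Por had 0.30 ± 0.13 (SE, limma adjusted p = 0.781). In Air lungs over days, 3 of 8 were called. Nr1i2, the pregnane X receptor, had means of 4.13, 5.18, 4.48 and 5.02 at days 1, 5, 9 and 21 (limma adjusted p = 0.000482). Ephx1, the microsomal epoxide hydrolase, had means of 9.03, 9.70, 9.53 and 10.1 (limma adjusted p = 0.000469), and Cyb5r3, the cytochrome b5 reductase, 11.5, 11.3, 11.7 and 11.2 (limma adjusted p = 0.0132). With the implant 1 of 8 was called, Nr1i2, which fell by 0.65 ± 0.17 (SE, limma adjusted p = 0.0051). It fell to 4.13 in PEP and 4.15 in Air lungs, against 4.50 in PEP and 5.02 in Air lungs without implant. The fall was called within Air lungs (−0.98 ± 0.24, limma adjusted p = 0.00716) and not within PEP lungs (−0.31 ± 0.23, limma adjusted p = 0.55). The test of that difference gave 0.67 ± 0.33 (SE, limma adjusted p = 0.742). The shares of all sets called over days and with the implant are given above.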

How the data were processed

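Total RNA of 50 rat lung samples was hybridised to Affymetrix Rat Gene 2.1 ST arrays. The values deposited by the authors are log2 signals for 36685 probe sets, made with the oligo package by RMA (background correction, quantile normalization and summary over probes) in R 3.4, per the submitters' processing notes, which also name limma. Quantile normalization removes a shift shared by most genes, and RMA compresses folds of dim sets. Array medians lay between 4.92 and 5.11 and values between 0.846 and 13.8. The number of arrays limits the precision. The table held 0 columns of other samples.

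Names came from the platform annotation: 14824 sets had 1 gene, 829 several and 21032 none named here, and 14670 of the single-gene sets matched a RefSeq record. Sets with a variance of at least 0.05 over the lungs were kept, as in the study's methods (8378 sets). A linear model over 10 groups with gene-by-gene array weights (0.58 to 1.64) and empirical Bayes moderation was fitted in limma 3.58.1 (R 4.3.3), with two-sided p-values adjusted by Benjamini-Hochberg over all tested sets. The model was tested on simulated data. Groups came from the sample titles, and the replicates' means are ± SD and model differences ± SE. Weighted differences can deviate from the difference of the plain means.

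Members and lists were chosen with earlier results of these data known. Named with values were sets called in any comparison other than those chosen after seeing the data, and the 3 sets of smallest p in each. Added to these were the 10 most variable outside PEP day 1 replicate 1, and those over 1 log2 unit above all other lungs in it. Cyp2j16, called over days in PEP lungs, is not among the 33 sets named by these rules. The alternatives were no variance filter, equal weights, centred medians, 1 set per gene, robust moderation, a replicate block and each lung left out. Promoters were taken from RefSeq (GRCr8), and the genome build behind the annotation is not given in the sources used here.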

Additional observations from a re-analysis of the deposited data

Results flagged for a closer look

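By chance about 1 in 20 groups would hold an outlying lung, if sets were named without regard to their values. Among the 33 named P450 sets, 330 groups of 4 to 6 lungs were tested for a single outlying lung, and 37 had one, spread over 20 lungs. PEP day 1 replicate 1 held 12 of them, all high: Cyp2c23 at 8.07, Cyp2c11 at 7.98, Cyp2c6v1 at 7.73, Cyp2c13 at 7.23, Cyp2c22 at 6.46, Cyp3a23-3a1 at 6.41, Cyp2b3 set 2 at 6.40, Cyp4f1 at 6.37, Cyp2b3 set 1 at 5.84, Cyp3a18 at 5.83, Cyp2d2 at 5.79 and Cyp7a1 at 4.17. The next lung of that group lay at 2.41 for Cyp7a1 and at 3.23 for Cyp2c11. All 12 sets had been named for their height in that lung. Their outlying values were fixed by that choice, and the chance rate does not apply to them. Other sets were named for a small p or a large variance, so the rate is no test for these either.

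Among the other PEP lungs, the outlying log2 values at day 5 were Cyp2b3 set 1 in replicate 3 (2.92), Cyp2c6v1 in replicate 2 (3.58) and Cyp7a1 in replicate 5 (2.66). At day 9 they were Cyp2d3 in replicate 3 (2.22, low), Cyp4x1 in replicate 3 (3.43) and Cyp7a1 in replicate 5 (2.46). At day 21 they were Cyp2a1 (4.16) and Cyp3a18 (3.37) in replicate 1, Cyp3a23-3a1 in replicate 5 (3.05), and Cyp4x1 (2.85) and Cyp7a1 (2.88) in replicate 4. In implanted PEP lungs they were Cyp26b1 (6.70, low) and Cyp2c13 (2.30) in replicate 1 and Cyp2b3 set 2 (2.88) and Cyp2c12 (3.24) in replicate 4.

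Among Air lungs they were Cyp2j4 in replicate 3 (6.94) and Cyp4v3 in replicate 4 (9.36) at day 1, Cyp4f39 in replicate 5 (3.95, low) at day 5 and Cyp11b2 in replicate 4 (4.31) at day 9. At day 21 they were Cyp11b2 in replicate 6 (2.93, low), Cyp2c11 (3.58) and Cyp7a1 (2.88) in replicate 4, and Cyp4a8 in replicate 3 (3.22). In implanted Air lungs they were Cyp2g1 in replicate 4 (5.35) and Cyp3a18 in replicate 3 (2.16, low).

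In 4 P450 sets every PEP lung lay above the Air mean in some comparison and below it in another. The share of all tested sets with such a switch is not given here, so 4 cannot be read as many or few. Set 1 of Cyp2b3 had a PEP difference of 0.57 at day 5, with all lungs above also at day 9 and with the implant, and −0.38 at day 21. Set 2 of the same gene had 0.17 at day 5, −0.07 at day 9, 0.05 with the implant and −0.20 at day 21. Cyp2c6v1 had 0.18 with the implant and −0.24 at day 21 without it. The test of the difference between implanted and other rats gave 0.47 ± 0.45 for set 1 of Cyp2b3 and 0.42 ± 0.64 for Cyp2c6v1 (SE, limma adjusted p = 0.867 and 0.919). Both SEs use the spread shared by all 10 groups, PEP day 1 replicate 1 included. Cyp2d4 had 0.34 at day 5 and −0.35 at day 9, and Cyp4a3 had 0.63 at day 1 (0.39 without replicate 1) and −0.21 at day 9. The F test of a change over days, which leaves out implanted rats, called none of the 4, and single pairs of days were not tested.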

How the results depend on the processing

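The absence of called P450 sets between PEP and Air lungs held under every alternative run and with each of the 50 lungs left out. Of the alternatives for single named sets, 1817 kept their direction and side of the threshold, 34 lost their call, and none turned. Counts at 1.5-fold at day 1 were 10 without the variance filter, 10 with equal array weights and 0 with centred array medians (4 in the report). These counts include PEP day 1 replicate 1. Without that lung the count in the report was 0, and the counts of the alternatives without it are not given. Those at day 5 were 1 with centred medians and 1 with the replicate block (0 in the report). For Air lungs over days, 2 sets were called with PEP lungs in place of Air lungs, 2 with these and PEP day 1 replicate 1 left out, and 1 with day 21 left out (6 in the report), and equal weights ended the calls of Cyp2s1 (limma adjusted p = 0.0546) and Cyp4f39 (0.0968). For the implant, 5 sets were called without the variance filter, 1 in PEP lungs only and 1 in Air lungs only (3 in the report), and 4 in PEP lungs only and 6 in Air lungs only reached 1.5-fold (1 in the report). For the airway score, 4 of 45 relations passed by r when the 4 sets that varied enough only through PEP day 1 replicate 1 were kept, 2 of them from such sets, against 2 of 41 in the report. Of the 45, 2 passed over all 50 lungs and 7 with centred medians. The comparisons with PEP lungs, single exposures, fewer days or 41 relations were chosen after seeing the data. The cause of these moves was not tested. Leaving out each lung gave 0 to 10 P450 sets at 1.5-fold at day 1, 0 to 2 at day 5, 0 to 5 at day 21, 0 to 2 with the implant and 2 to 9 for the difference between implanted and other rats, and 4 to 7 called over days, 2 to 6 called with the implant and 1 to 3 at 1.5-fold with it. Of 25 pairs with a shared replicate number, 4 correlated above 0.1 (−0.35 to 0.28 over all pairs), and 6 PEP lungs correlated best with their own number. All 4, and 3 of the 6, were at day 21 without implant, where the 6 pairs ran from 0.06 to 0.28. On the other days and with the implant no pair correlated above 0.1. Whether the numbers pair the lungs of day 21 is thus undecided. The replicate block called 0 P450 sets in each PEP comparison. Many P450 sets had low values, for which RMA compresses differences, and 4 to 6 lungs per group limit what can be called.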
